A study of Mus musculus with 9 samples.

Results

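The 8 genes described here are Zscan4b, Zscan4c, Zscan4d, Zscan4e and Zscan4f, the genes Tcstv1 and Tcstv3, and Gm8300, all known from the 2-cell stage of the mouse embryo. They were picked by name, with gene synonyms allowed, out of 20287 genes with a value in at least 1 library. Of the 8, 7 had a value in at least 1 library, and 6 of these were among the 13990 genes with a mean of at least 0.5 FPKM (a level scaled by transcript length and library size) over all libraries, which were tested. Zscan4e, which RefSeq annotates as a pseudogene, had no listed value in any library, and Tcstv1, with a mean of 0.467 FPKM, was left untested. All 6 tested genes also averaged at least 0.5 FPKM over the KO libraries alone, between 1.26 FPKM for Tcstv3 and 16.5 FPKM for Zscan4f, so none passed the filter only through its WT level.

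RNA was sequenced from cultures of E14, an embryonic stem cell line from a strain 129 mouse, which were either Hbxip knockouts (KO) or wild type (WT). Hbxip, now named Lamtor5, encodes a subunit of Ragulator, the lysosomal complex that anchors the Rag GTPases in amino acid signalling to mTORC1. The 6 groups were KO and WT cells in pluripotent culture, KO and WT cells on day 4 after 96 h without the cytokine LIF, and KO and WT embryoid bodies. Each KO group held 2 libraries and each WT group held 1 library. The labels do not say how the knockout was made, whether it is a single clone, or whether the 2 KO libraries of a culture came from separate cultures, so a p-value sets a difference against no more than the spread among these libraries. The single WT library of a culture was taken to vary as the KO pairs do.

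In mouse embryonic stem cell cultures a small, changing fraction of cells passes through a state that resembles the 2-cell embryo, in which the Zscan4 cluster, Tcstv genes and the endogenous retrovirus MERVL are switched on together. ZSCAN4 is a nuclear protein with a SCAN domain and zinc fingers, known for its part in telomere lengthening and genome stability in embryonic stem cells. The state is driven in the mouse by the homeobox factor DUX, and because few cells carry it at a time, these transcripts in bulk RNA come mostly from rare cells. In bulk libraries fewer cells in this state and less RNA per cell cannot be told apart.

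Library totals lay between 10147277 and 10863845 rounded counts, at which 3 counts correspond to 0.276 to 0.296 CPM, a count scaled by the library total. All 9 markers of embryonic stem cells had values in every group, with a summed level between 3988 and 5283 FPKM over the libraries. In pluripotent culture the sum was 4414 to 4794 FPKM in KO against 5283 FPKM in WT. After LIF withdrawal it was 4007 to 4198 FPKM in KO against 3988 FPKM in WT. In embryoid bodies it was 4968 to 5192 FPKM in KO against 4732 FPKM in WT. Single markers could differ more, such as Klf4, at 85.60 and 90.51 FPKM in KO against 154.69 FPKM in WT pluripotent cells. After LIF withdrawal Klf4 was at 60.31 and 58.00 FPKM in KO against 21.12 FPKM in WT. Hbxip itself was at 30.97 and 29.13 FPKM in KO against 40.73 FPKM in WT pluripotent cells. It was at 16.18 and 15.53 FPKM in KO against 38.54 FPKM in WT without LIF, and at 22.99 and 18.34 FPKM in KO against 41.83 FPKM in WT embryoid bodies. Its reads thus remained in every KO library, and the knockout is taken from the labels.

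By the RefSeq annotation of GRCm38.p6 the Zscan4 genes lie together on chromosome 7, Tcstv1 and Tcstv3 lie on chromosome 13 and Gm8300 lies on chromosome 12. Promoter sequences were at hand for 4 of the 8 genes, Zscan4b, Zscan4c, Zscan4d and Zscan4f, from RefSeq for build GRCm38.p6 (the reads had been aligned to mm8). They are shown because the copies moved together in every comparison of genotype. Each stretch of 82 bases lies upstream of the annotated transcript start and is written 5′ to 3′ on the strand of the gene. Capitals mark, first, an 11-base element that differs by 1 base from the DUX-type motif (TGATT and AATCA around 1 base of any kind) and, second, a TATA box. The stretches lie at chr7:10905065-10905146 (minus strand) for Zscan4b, at chr7:11005626-11005707 (plus strand) for Zscan4c, at chr7:11166197-11166278 (minus strand) for Zscan4d and at chr7:11397819-11397900 (plus strand) for Zscan4f.
Zscan4b: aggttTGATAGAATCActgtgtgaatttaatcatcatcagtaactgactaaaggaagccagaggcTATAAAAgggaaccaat
Zscan4c: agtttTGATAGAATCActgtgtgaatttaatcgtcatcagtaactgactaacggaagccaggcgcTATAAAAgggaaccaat
Zscan4d: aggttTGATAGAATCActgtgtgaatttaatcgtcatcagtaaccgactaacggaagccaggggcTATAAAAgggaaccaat
Zscan4f: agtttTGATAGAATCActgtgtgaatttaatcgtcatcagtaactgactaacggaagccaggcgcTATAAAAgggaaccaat
The stretches of Zscan4c and Zscan4f were identical at 82 of 82 bases, and the other pairs at 77 to 79 bases. Over the whole promoter windows, which run from 250 bases before to 50 bases after the start, aligned bases were identical at 95.3% to 99.3%. The motif itself occurred on either strand in 0 of the 4 windows and in 0.0335% of 32851 RefSeq promoter windows of the same length. As TGAT and AATCA around 2 free bases it occurred in 4 of 4 windows and in 0.207% of all. This second form was chosen after the sequences had been seen, and every match of the first form is also one of the second. The letters TATAAAA occurred in 4 of 4 windows and in 5.48% of all. A match is a run of letters only, and with copies this alike the 4 windows are close to 1 observation.

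The transcripts also share sequence, which limits what can be said of 1 copy. Of all 50-base windows of the annotated transcript, 95.3% also occurred in transcripts of other genes for Zscan4f, 92.5% for Zscan4b, 85.5% for Zscan4c and 49.6% for Zscan4d. The share was 31.4% for Tcstv3, 25.3% for Tcstv1 and 26.6% for Gm8300. Zscan4b shared 87.7% of its windows with Zscan4e, so reads of these copies cannot be told apart over most of the transcript. The absence of a Zscan4e value therefore does not show that it was silent. The deposited counts of these genes were fractional in all libraries that listed them, to a tolerance of 0.005, whereas 78.0% to 78.4% of all genes in a library had whole counts. Values of single copies are therefore uncertain, and each family is also given as a sum. The sources used here do not say whether counting used strand, so reads of overlapping antisense transcripts cannot be told apart.

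KO minus WT asks how the level of these genes differs with Hbxip genotype in each culture. In all 3 cultures the Zscan4 copies, Tcstv3 and Gm8300 were lower in KO, to between 5.27% and 10.88% of the WT level in pluripotent culture and between 15.33% and 32.51% of it in the differentiating cultures. Each of the 6 tested genes fell in KO in pluripotent culture, where 26.3% of all tested genes fell. The count was again 6 of 6 after LIF withdrawal, where 17.5% of all tested genes fell, and 6 of 6 in embryoid bodies, where 17.8% fell. The copies share reads and are not 6 independent observations. A gene was called at an adjusted p below 0.05 (edgeR's quasi-likelihood test, Benjamini-Hochberg over all tested genes). Values after ± on the log2 scale are standard errors derived from the F statistic, and at few counts they can be smaller than the counting error.

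**Figure D1:**
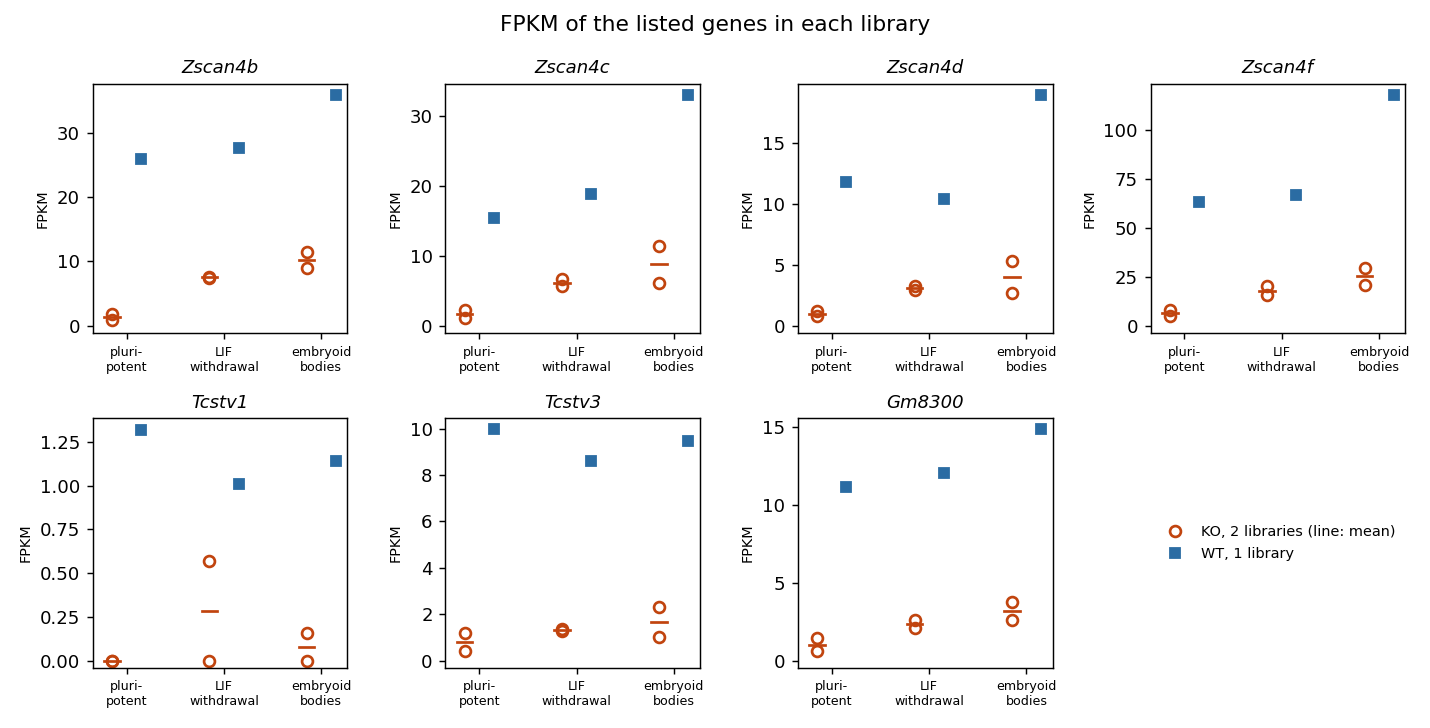
FPKM of the 7 genes with values, in each of the 9 libraries, by culture on the x axis; open circles are the 2 KO libraries of a culture with a line at their mean, and filled squares are the 1 WT library. In every panel and culture both KO libraries lie below the WT library, and the y axes differ between panels.

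Zscan4f, the copy with the highest FPKM in every library, stood at 4.96 and 8.02 FPKM in KO against 63.33 FPKM in WT pluripotent cells. After LIF withdrawal it stood at 15.61 and 20.05 FPKM in KO against 66.80 FPKM in WT, and in embryoid bodies at 29.50 and 20.96 FPKM in KO against 117.83 FPKM in WT. The genotypes did not overlap in any culture, and the highest KO library, an embryoid body library, lay below the lowest WT library. Its log2 fold change, KO over WT, was -3.17 ± 0.21 in pluripotent culture (adjusted p = 2.66e-07), -1.85 ± 0.19 after LIF withdrawal (adjusted p = 1.15e-05) and -2.23 ± 0.18 in embryoid bodies (adjusted p = 1.83e-06).

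Zscan4b had 0.93 and 1.80 FPKM in KO against 25.88 FPKM in WT pluripotent cells. It had 7.38 and 7.64 FPKM in KO against 27.60 FPKM in WT after LIF withdrawal, and 11.52 and 8.96 FPKM in KO against 35.90 FPKM in WT embryoid bodies. All 6 KO libraries lay below all 3 WT libraries, and the KO pluripotent libraries were the lowest. The log2 fold changes were -4.12 ± 0.23 in pluripotent culture (adjusted p = 7.36e-08), -1.82 ± 0.18 after LIF withdrawal (adjusted p = 9.76e-06) and -1.82 ± 0.17 in embryoid bodies (adjusted p = 7.21e-06).

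Zscan4c, first described as the main copy in mouse embryonic stem cells, had 1.15 and 2.19 FPKM in KO against 15.35 FPKM in WT pluripotent cells, 5.61 and 6.64 FPKM in KO against 18.84 FPKM in WT after LIF withdrawal, and 11.44 and 6.06 FPKM in KO against 32.98 FPKM in WT embryoid bodies. Zscan4d, first described as the main copy in 2-cell embryos, had 0.81 and 1.17 FPKM in KO against 11.80 FPKM in WT pluripotent cells, 3.25 and 2.91 FPKM in KO against 10.36 FPKM in WT after LIF withdrawal, and 5.29 and 2.65 FPKM in KO against 18.92 FPKM in WT embryoid bodies. Neither gene overlapped between genotypes in any culture, and for both the 2 KO embryoid body libraries lay far apart. In the order of the cultures the log2 fold changes were -3.08 ± 0.33, -1.56 ± 0.27 and -1.92 ± 0.25 for Zscan4c, and -3.43 ± 0.33, -1.68 ± 0.28 and -2.26 ± 0.25 for Zscan4d. Adjusted p-values of both genes ran up to 0.000795.

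Summed over the 4 copies, Zscan4 was at 10.5 ± 3.77 FPKM in KO (SD, n = 2) against 116.4 FPKM in WT pluripotent cells, which is 9.04% of the WT level. After LIF withdrawal the sum was 34.5 ± 3.81 FPKM in KO (SD, n = 2) against 123.6 FPKM in WT, and in embryoid bodies 48.2 ± 13.5 FPKM in KO (SD, n = 2) against 205.6 FPKM in WT. The KO sums were 27.95% of the WT level after LIF withdrawal and 23.44% in embryoid bodies. On summed counts the log2 fold change was -3.33 ± 0.22 in pluripotent culture (adjusted p = 2.96e-07), -1.77 ± 0.20 after LIF withdrawal (adjusted p = 2.93e-05) and -2.10 ± 0.20 in embryoid bodies (adjusted p = 6.6e-06). Over the 3 cultures together it was -2.42 ± 0.28 (adjusted p = 0.000543). In that comparison 6 of 6 tested genes fell, with log2 fold changes between -2.17 for Zscan4c and -2.85 for Tcstv3, where 13.8% of all tested genes fell. Without the WT pluripotent library Zscan4b stood at -1.82 in that comparison, against -2.54 with it.

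**Figure D2:**
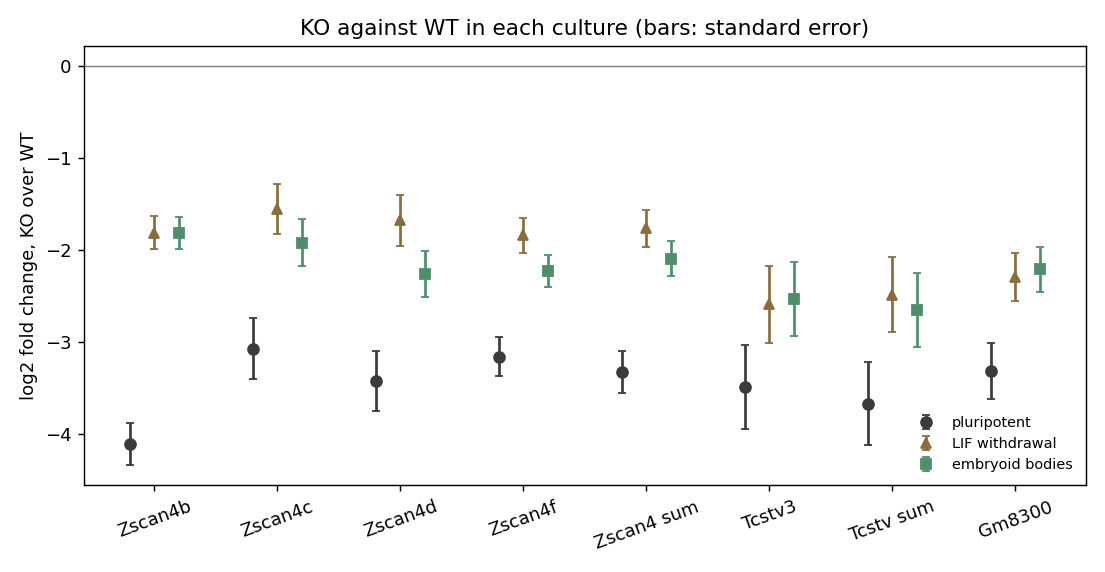
Log2 fold change of KO over WT for each tested gene and for the family sums, by culture (circles for pluripotent, triangles for LIF withdrawal, squares for embryoid bodies); bars are standard errors from edgeR's quasi-likelihood test. Every point lies below 0, and for each gene and sum the pluripotent point is the lowest of the 3.

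Tcstv3 and Tcstv1 encode small proteins of the 2-cell stage that have been linked to telomere lengthening in mouse embryonic stem cells. Tcstv3 had 0.41 and 1.19 FPKM in KO against 9.96 FPKM in WT pluripotent cells, 1.28 and 1.36 FPKM in KO against 8.61 FPKM in WT after LIF withdrawal, and 2.31 and 1.01 FPKM in KO against 9.45 FPKM in WT embryoid bodies. The WT libraries were close to each other, and every KO library lay far below them. The log2 fold changes were -3.49 ± 0.45 (adjusted p = 5.01e-05), -2.59 ± 0.42 (adjusted p = 0.000434) and -2.54 ± 0.40 (adjusted p = 0.000409) in the order of the cultures. The pluripotent value was -4.27 without KO pluripotent replicate 2, and that of embryoid bodies was -3.24 without KO embryoid body replicate 1. Over all single left-out libraries the values ran from -4.27 to -2.99 in pluripotent culture and from -3.24 to -2.06 in embryoid bodies. In pluripotent culture the KO libraries held 14 counts together and the WT library 90, a ratio of 0.0805 per library total (95% exact counting interval 0.0423 to 0.142).

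Tcstv1 was near the limit of detection. It was listed at 0 and 0 FPKM in KO against 1.32 FPKM in WT pluripotent cells, 0.57 and 0 FPKM in KO against 1.01 FPKM in WT after LIF withdrawal, and 0.16 and 0 FPKM in KO against 1.14 FPKM in WT embryoid bodies. With 0 counts in the KO pair and 12 counts in WT it was at least 7.73-fold lower in KO pluripotent cells, set against 3 counts over the KO pair. After LIF withdrawal there were 5 counts in the KO pair and 9 in WT, a ratio of 0.273 (95% exact counting interval 0.0718 to 0.906). In embryoid bodies there was 1 count in the KO pair against 10 in WT, a ratio of 0.0495 (0.00114 to 0.348). These intervals and limits cover counting error only. Summed over both genes, Tcstv fell in KO, with log2 fold changes of -3.67 ± 0.45 (adjusted p = 3.48e-05), -2.49 ± 0.41 (adjusted p = 0.000497) and -2.65 ± 0.40 (adjusted p = 0.000293) in the order of the cultures. The sum stood at -4.46 without KO pluripotent replicate 2 in the first and at -3.41 without KO embryoid body replicate 1 in the last. Over all single left-out libraries it reached -3.18 at the other end in the first and -2.15 in the last.

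Gm8300, a predicted gene that shares transcript windows with other predicted genes of the 2-cell stage, had 0.63 and 1.42 FPKM in KO against 11.11 FPKM in WT pluripotent cells. It had 2.10 and 2.61 FPKM in KO against 12.05 FPKM in WT after LIF withdrawal, and 3.78 and 2.61 FPKM in KO against 14.82 FPKM in WT embryoid bodies. KO and WT did not overlap in any culture. The log2 fold changes were -3.32 ± 0.30 (adjusted p = 3.29e-06), -2.29 ± 0.26 (adjusted p = 2.91e-05) and -2.21 ± 0.25 (adjusted p = 2.66e-05) in the order of the cultures. The pluripotent value was -4.00 when KO pluripotent replicate 2 was left out, and over all single left-out libraries it ran from -4.00 to -2.85.

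The makeup of the Zscan4 sum was much alike in most libraries. Zscan4f gave 46.9% to 60.7% of the summed counts in each library, and its FPKM stood first in all 9. Zscan4b gave 10.97% (95% Wilson interval 6.96% to 16.86%) and 12.5% (9.0% to 17.11%) of the summed counts in the KO pluripotent libraries, against 20.64% (19.04% to 22.33%) in WT pluripotent cells. In the other 6 libraries it gave 16.07% to 21.42%. Zscan4b thus stood below Zscan4c in FPKM in both KO pluripotent libraries and above it in the other 7. Set against the summed Zscan4 FPKM of the same library, the Tcstv sum was 5.22% and 9.03% in KO against 9.69% in WT pluripotent cells, 5.81% and 3.65% in KO against 7.78% in WT after LIF withdrawal, and 4.28% and 2.61% in KO against 5.15% in WT embryoid bodies. These shares depend on how the counter split shared reads between copies, and their differences were not tested.

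**Figure D3:**
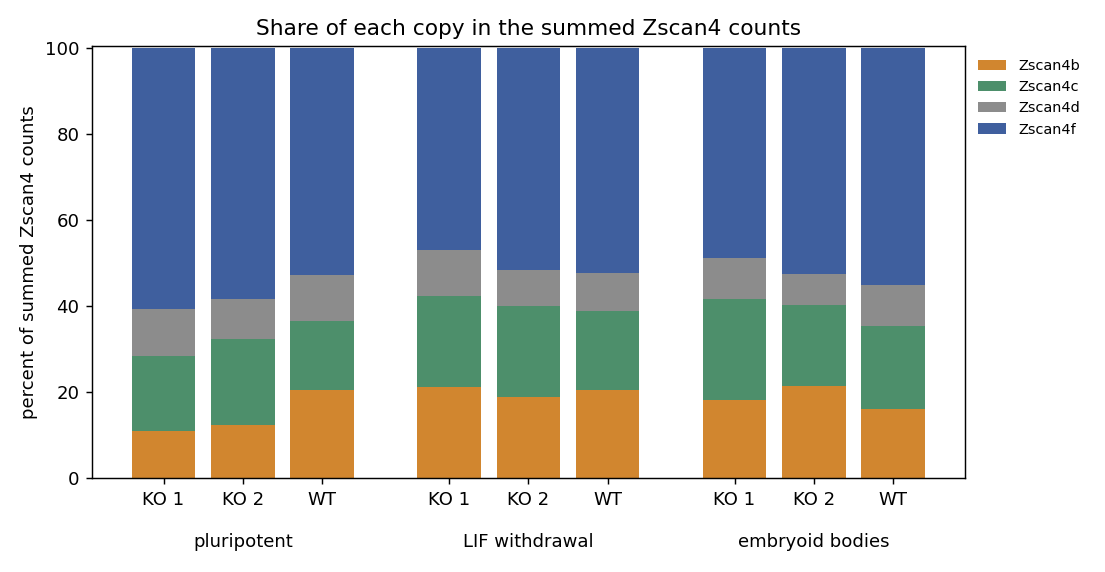
Share of Zscan4b, Zscan4c, Zscan4d and Zscan4f in the summed Zscan4 counts (percent, y axis) in each library, KO replicates 1 and 2 beside WT in each culture. Zscan4f takes the largest share everywhere, and the Zscan4b share is at 10.97% and 12.5% in the KO pluripotent libraries against 16.07% to 21.42% in all others.

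The comparisons of culture ask how these genes respond when LIF is withdrawn or embryoid bodies form. In KO cells the Zscan4 copies and Gm8300 rose in both differentiating cultures relative to pluripotent culture, whereas Tcstv3 did not pass the test. After LIF withdrawal 5 of 6 tested genes rose in KO, where 30.2% of all tested genes rose, and in embryoid bodies 5 of 6 rose in KO, where 31.0% rose. In WT cells 0 of 6 rose after LIF withdrawal, where 11.6% of all tested genes rose, by edgeR, DESeq2 or limma, and 0 had an unadjusted p under 0.05 with edgeR. In WT embryoid bodies 2 of 6 rose, where 19.7% rose. Both responses of a genotype are set against the same pluripotent libraries, so they are not independent of each other.

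In KO the Zscan4 sum rose by 1.68 ± 0.21 on the log2 scale after LIF withdrawal (adjusted p = 2.72e-05) and by 2.09 ± 0.21 in embryoid bodies (adjusted p = 4.06e-06). The smallest KO rise after LIF withdrawal among the copies was that of Zscan4f, with 1.42 ± 0.21, and the largest was that of Zscan4b, with 2.42 ± 0.24. In KO embryoid bodies the copies rose by 1.85 ± 0.20 for Zscan4f to 2.79 ± 0.23 for Zscan4b, and in both cultures the KO libraries of every copy lay above both KO pluripotent libraries. Gm8300 rose in KO by 1.17 ± 0.33 after LIF withdrawal (adjusted p = 0.0091), a call that was lost without KO pluripotent replicate 1, at 0.70 (adjusted p = 0.101), and without KO LIF withdrawal replicate 2, at 1.02 (adjusted p = 0.0615). It was 1.86 without KO pluripotent replicate 2, and the adjusted p ran from 0.00235 to 0.101 over all alternatives. In KO embryoid bodies Gm8300 rose by 1.54 ± 0.32 (adjusted p = 0.00114), and by 1.07 to 2.23 with single libraries left out. For Tcstv3 in KO the change was 0.72 ± 0.55 after LIF withdrawal (adjusted p = 0.277) and 0.91 ± 0.53 in embryoid bodies (adjusted p = 0.156), at the few counts given above. Without KO pluripotent replicate 2 these Tcstv3 values were 1.499 and 1.69, and without KO embryoid body replicate 1 the embryoid body value was 0.21. The lowest LIF withdrawal value of Tcstv3 with a single library left out was also 0.21.

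In WT the Zscan4 sum changed by 0.12 ± 0.23 on the log2 scale after LIF withdrawal (adjusted p = 0.761) and rose by 0.85 ± 0.23 in embryoid bodies (adjusted p = 0.0111). In WT embryoid bodies Zscan4c rose by 1.12 ± 0.29 (adjusted p = 0.00969) and Zscan4f by 0.92 ± 0.20 (adjusted p = 0.00368). Each of these comparisons sets 1 library against 1, and DESeq2 and limma made none of the 3 calls in WT embryoid bodies. Zscan4b, at 0.49 ± 0.19 (adjusted p = 0.0608), and Zscan4d, at 0.70 ± 0.28 (adjusted p = 0.0625), did not pass in WT embryoid bodies. Zscan4b passed without KO pluripotent replicate 1 or 2, at 0.49 both times, and Zscan4d without KO embryoid body replicate 1 or 2, at 0.70 both times.

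**Figure D4:**
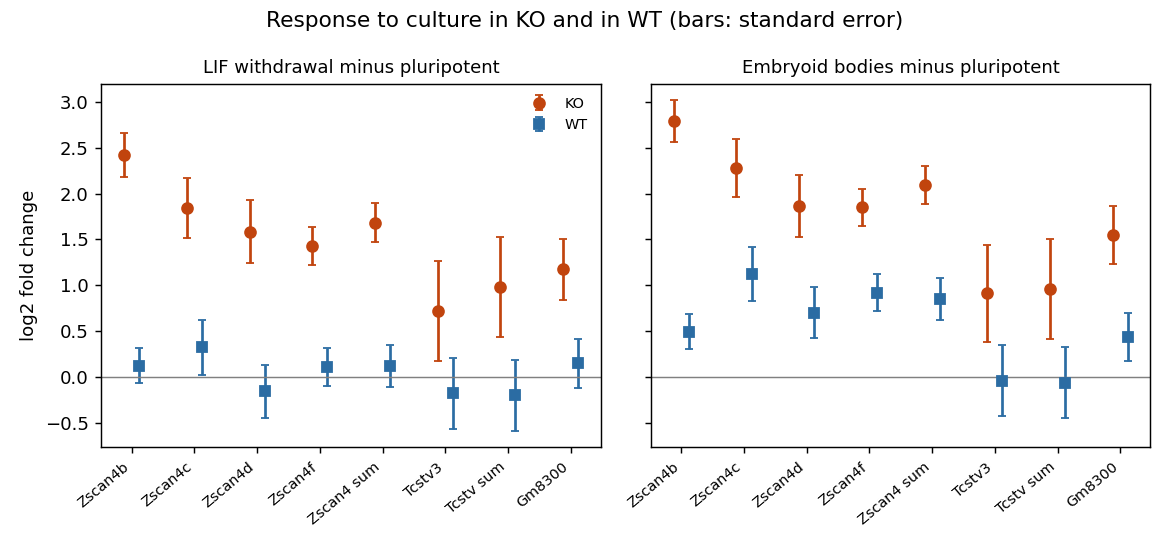
Log2 fold change of LIF withdrawal over pluripotent culture (left) and of embryoid bodies over pluripotent culture (right) for each tested gene and the family sums, in KO (circles) and WT (squares); bars are standard errors from edgeR's quasi-likelihood test. In both panels every KO point lies above the WT point of the same gene, and the WT points of the left panel lie near 0.

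Whether the responses differ with genotype was tested as the difference of the KO and WT responses. The response to LIF withdrawal was higher in KO for 4 of 6 tested genes, where this held for 17.5% of all tested genes. The differences were 2.30 ± 0.31 for Zscan4b (adjusted p = 0.000231), 1.52 ± 0.45 for Zscan4c (adjusted p = 0.022), 1.74 ± 0.46 for Zscan4d (adjusted p = 0.0117) and 1.32 ± 0.29 for Zscan4f (adjusted p = 0.00498). Zscan4c no longer passed without KO pluripotent replicate 1, at 1.13, or without KO LIF withdrawal replicate 2, at 1.41. For the Zscan4 sum the difference was 1.56 ± 0.32 (adjusted p = 0.00277), which DESeq2, at 1.56 (adjusted p = 0.0687), and limma on log2(FPKM + 0.1) did not call. DESeq2 called 2 of the 6 genes in this comparison and limma 1. Gm8300, at 1.03 ± 0.43 (adjusted p = 0.0867), passed only without KO pluripotent replicate 2, at 1.71, and the Tcstv sum was at 1.19 ± 0.67 (adjusted p = 0.196). With that library left out Tcstv3 stood at 1.68 in place of 0.90 and the Tcstv sum at 1.97. The lowest values with a single library left out were 0.39 for Tcstv3 and 0.69 for the Tcstv sum.

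For embryoid bodies the response was higher in KO for 3 of 6 tested genes, where this held for 22.4% of all tested genes. Zscan4b differed by 2.30 ± 0.31 (adjusted p = 0.000143), Zscan4f by 0.94 ± 0.29 (adjusted p = 0.021) and Gm8300 by 1.11 ± 0.42, with an adjusted p of 0.04997. Zscan4f no longer passed at 0.64 when KO pluripotent replicate 1 was left out, or at 0.67 when KO embryoid body replicate 1 was. The Gm8300 call was lost without any of KO pluripotent replicate 1, at 0.64, KO embryoid body replicate 1, at 0.82, KO LIF withdrawal replicate 1, at 1.09, KO LIF withdrawal replicate 2, at 1.11, and the WT LIF withdrawal library, at 1.11, and it was 1.79 without KO pluripotent replicate 2. DESeq2, limma, edgeR with RLE factors and edgeR without the filter did not call Gm8300 here either. Zscan4c, at 1.16 ± 0.44 (adjusted p = 0.0521), passed without KO pluripotent replicate 2, at 1.67, or KO embryoid body replicate 2, at 1.54, and Zscan4d, at 1.16 ± 0.44 (adjusted p = 0.0523), passed without KO embryoid body replicate 2, at 1.58. For the Zscan4 sum the difference was 1.24 ± 0.31 (adjusted p = 0.00742), and neither DESeq2, at 1.23 (adjusted p = 0.154), nor limma made that call. The difference for Tcstv3, at 0.95 and not called, was 1.74 without KO pluripotent replicate 2 and 0.25 without KO embryoid body replicate 1. DESeq2 and limma each called 1 of the 6 genes in this comparison. Both differences of responses use the same pluripotent libraries of KO and WT.

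Of 35 other gene names known from the 2-cell stage, 32 had values, and Dux, Duxf3 and BC061212 did not. Of the 32, 25 were tested, 22 of which averaged at least 0.5 FPKM over the KO libraries alone. They fell together with the genes above: 20 of 25 were lower and 2 higher in KO pluripotent cells, where 26.3% of all tested genes were lower and 25.5% higher. After LIF withdrawal 21 were lower, against 17.5% of all genes, and in embryoid bodies 22 were lower and 1 higher, against 17.8% and 19.4% of all. The median log2 fold change of the 25 was -2.74 in pluripotent culture, against -0.01 over all tested genes, and it was -2.04 and -2.03 in the other cultures, against 0 over all genes. A total of 17 of the 25 were lower in each of the 3 cultures, which held for 5.65% of all tested genes. Several of them share transcript windows with Gm8300 or Zscan4 copies, so they are not separate evidence.

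Zscan4a, the copy outside the 8, had 1.12 and 2.55 FPKM in KO against 8.09 FPKM in WT pluripotent cells, 3.01 and 4.30 FPKM in KO against 9.20 FPKM in WT after LIF withdrawal, and 5.20 and 3.51 FPKM in KO against 14.07 FPKM in WT embryoid bodies. It fell in KO in each culture, with log2 fold changes of -2.02 ± 0.33, -1.27 ± 0.30 and -1.70 ± 0.28. Gm2022, which shares transcript windows with Gm8300, had 0.81 and 2.18 FPKM in KO against 17.21 FPKM in WT pluripotent cells, 3.90 and 3.91 FPKM in KO against 17.03 FPKM in WT after LIF withdrawal, and 7.17 and 6.81 FPKM in KO against 34.70 FPKM in WT embryoid bodies. Gm5662 had 0.80 and 0.55 FPKM in KO against 18.40 FPKM in WT pluripotent cells, a log2 fold change of -4.66 ± 0.43, and Gm5039 fell there with -3.34 ± 0.34. The predicted gene Gm2016 fell with -2.29 after LIF withdrawal and with -2.43 in embryoid bodies, Eif4a3l1 with -2.43 ± 0.32 after LIF withdrawal and Gm6763 with -2.92 ± 0.34 in embryoid bodies. Usp17le, a deubiquitinase of the Usp17-like family, had 0.16 and 0.45 FPKM in KO against 4.35 FPKM in WT pluripotent cells, 0.86 and 1.19 FPKM in KO against 7.72 FPKM in WT after LIF withdrawal, and 1.26 and 1.15 FPKM in KO against 6.92 FPKM in WT embryoid bodies. Neither Gm2022 nor Usp17le overlapped between genotypes in any culture.

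Few members of this list were higher in KO. Pramel6, of the PRAME-like family known from early embryos, was at 19.91 and 12.97 FPKM in KO against 0.68 FPKM in WT pluripotent cells, a log2 fold change of 4.71 ± 0.48 (adjusted p = 7.17e-06). Pramel7, of the same family, was at 4.31 and 4.24 FPKM in KO against 1.52 FPKM in WT pluripotent cells, with 1.61 ± 0.32 (adjusted p = 0.00116). In embryoid bodies both fell in KO, with -1.69 ± 0.54 for Pramel6 and -1.74 ± 0.44 for Pramel7. Gm4340 had 0 counts in KO and 61 in WT pluripotent cells, 0 in KO and 26 in WT after LIF withdrawal, but 137 in KO and 0 in WT embryoid bodies, and was at least 22.6-fold higher in KO there, set against 3 counts in WT.

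**Figure D5:**
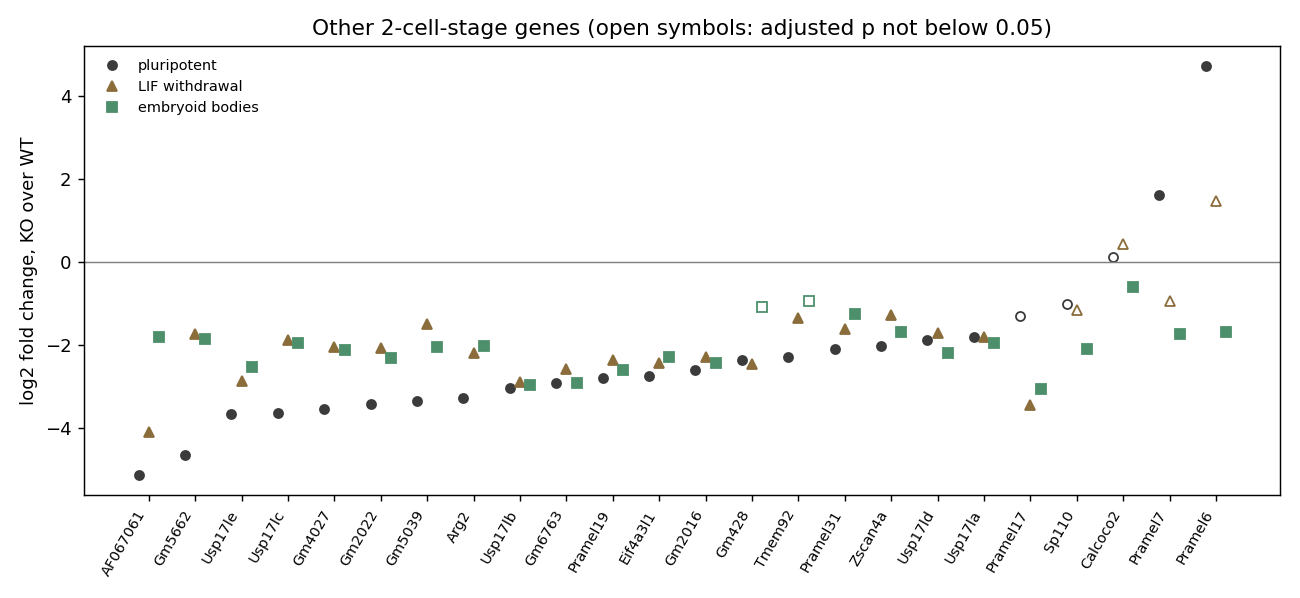
Log2 fold change of KO over WT for the 24 of 25 tested other 2-cell-stage genes with counts in both genotypes of every culture, by culture (circles for pluripotent, triangles for LIF withdrawal, squares for embryoid bodies), ordered by the pluripotent value; open symbols did not pass the test. Most points lie below 0, and of the filled symbols only those of Pramel6 and Pramel7 in pluripotent culture lie above it.

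Known regulators of the 2-cell-like state moved in both directions. No value was listed under the names Dux or Duxf3, so the RNA of the driver DUX could not be read here. Of 7 tested positive regulators 1 was higher and 4 were lower in KO pluripotent cells, against 25.5% and 26.3% of all tested genes. After LIF withdrawal 3 were higher and 2 lower, against 18.4% and 17.5% of all, and in embryoid bodies 4 were higher and 2 lower, against 19.4% and 17.8%. Dppa2, which acts upstream of Dux in mouse embryonic stem cells, had 104.93 and 110.24 FPKM in KO against 108.34 FPKM in WT pluripotent cells, 134.71 and 129.20 FPKM in KO against 89.29 FPKM in WT after LIF withdrawal, and 105.32 and 95.73 FPKM in KO against 63.40 FPKM in WT embryoid bodies. The KO pair thus enclosed or exceeded the WT level, and the log2 fold changes were 0.11 ± 0.09 (adjusted p = 0.315), 0.63 ± 0.09 (adjusted p = 0.000213) and 0.66 ± 0.09 (adjusted p = 0.000176) in the order of the cultures. Its partner Dppa4 rose in KO pluripotent cells by 0.34 ± 0.09 (adjusted p = 0.00706). Genes that fell in KO pluripotent cells were Tet2, which encodes a 5-methylcytosine dioxygenase, at -0.61 ± 0.12, Trp53, which encodes the tumour suppressor p53, at -0.47 ± 0.09, and Nelfa, a subunit gene of the negative elongation factor, at -0.39 ± 0.09. Tet2 rose in KO by 0.67 after LIF withdrawal and by 0.98 in embryoid bodies. Tbx3, a T-box factor of naive pluripotency, rose in KO by 1.21 ± 0.09 after LIF withdrawal and by 1.41 ± 0.10 in embryoid bodies. Dppa3, a maternal-effect gene also known as Stella, was at 0.36 and 0.25 FPKM in KO against 1.66 FPKM in WT pluripotent cells and at 0.37 and 0.36 FPKM in KO against 9.35 FPKM in WT embryoid bodies. It fell in KO embryoid bodies, with -4.64 ± 0.47 (adjusted p = 1.25e-05), with 6 counts in the KO pair.

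Of 24 tested repressors of the state 5 were higher and 11 lower in KO pluripotent cells, against 25.5% and 26.3% of all tested genes. After LIF withdrawal 9 were higher and 1 lower, against 18.4% and 17.5% of all, and in embryoid bodies 10 were higher and 3 lower, against 19.4% and 17.8%. In KO pluripotent cells Kdm1a, a histone demethylase, fell with a log2 fold change of -0.86 ± 0.08, the RNA-binding protein gene Lin28a with -0.89 ± 0.09 and the nucleolin gene Ncl with -0.68 ± 0.09, whereas the histone methyltransferase gene Ehmt2 rose by 0.80 ± 0.09. L3mbtl2, which encodes a subunit of a variant Polycomb complex, was at 67.78 and 62.98 FPKM in KO against 43.38 FPKM in WT pluripotent cells and rose in KO in all 3 cultures, by 0.72 ± 0.12, 0.92 ± 0.12 and 1.15 ± 0.13. Zfp42, also known as Rex1, was lower in KO pluripotent cells, at -0.31 ± 0.09, and higher in KO after LIF withdrawal, at 0.87 ± 0.09, and in embryoid bodies, at 0.79 ± 0.09. Rybp, a subunit gene of variant Polycomb complexes, rose in KO by 0.53 after LIF withdrawal and by 0.54 in embryoid bodies. The median over the 24 was -0.24, 0.22 and 0.11 in the order of the cultures, against -0.01, 0 and 0 over all tested genes.

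Among 23 tested genes of telomere maintenance, the process ZSCAN4 is known for, 10 were higher and 5 lower in KO pluripotent cells, against 25.5% and 26.3% of all tested genes. After LIF withdrawal 6 were higher and 1 lower, against 18.4% and 17.5% of all, and in embryoid bodies 6 were higher and 3 lower, against 19.4% and 17.8%. Acd, which encodes the shelterin protein TPP1, rose in KO pluripotent cells by 1.53 ± 0.11 (adjusted p = 5.11e-07). The helicase gene Rtel1 was at 40.06 and 39.30 FPKM in KO against 28.71 FPKM in WT pluripotent cells and rose in KO by 0.59 ± 0.09, 0.51 ± 0.09 and 0.55 ± 0.09 in the order of the cultures. Blm, also a helicase gene, fell with -0.81 ± 0.11 in KO pluripotent cells and rose by 0.53 ± 0.12 in KO embryoid bodies. The chromatin remodeller gene Atrx rose in KO pluripotent cells by 0.65 ± 0.09, and its partner Daxx after LIF withdrawal by 0.61 ± 0.11. Of the shelterin genes, Terf1 rose in KO after LIF withdrawal by 0.66 ± 0.10 and Tinf2 fell in KO embryoid bodies with -0.52 ± 0.11, where the telomerase-associated gene Tep1 rose by 1.04 ± 0.15. Rif1, named for its binding to Rap1 in yeast, fell with -0.59 ± 0.08 in KO pluripotent cells and rose by 0.36 after LIF withdrawal and 0.44 ± 0.08 in embryoid bodies. Of the meiotic genes linked to ZSCAN4, 2 were tested, Smc1b and Dmc1, and neither was called in pluripotent culture. Smc1b, a meiotic cohesin subunit gene, rose in KO by 1.45 ± 0.21 after LIF withdrawal and by 1.17 ± 0.23 in embryoid bodies. There 18.4% and 19.4% of all tested genes were higher, and Dmc1 was not called in either.

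Of 17 tested paralogs with a SCAN domain outside the Zscan4 cluster, 4 were lower in KO pluripotent cells, against 26.3% of all tested genes. These were Zkscan8, at -0.72 ± 0.15, Zkscan3, at -0.69 ± 0.18, Zscan25, at -0.67 ± 0.19, and Zscan20, at -0.56 ± 0.20. After LIF withdrawal Zscan18 was higher in KO, at 0.56 ± 0.19, against 18.4% of all genes, and Zkscan3 lower, at -0.55, against 17.5%. In embryoid bodies Zscan10 was lower, at -0.36 ± 0.11, against 17.8% of all genes. Leaving out 1 library ended 5 of these 7 calls: that of Zscan20 without KO pluripotent replicate 1 or 2, at -0.51 and -0.60, that of Zscan25 without KO pluripotent replicate 2, at -0.54, and that of Zkscan3 after LIF withdrawal without KO LIF withdrawal replicate 1. Zscan18 no longer passed without KO LIF withdrawal replicate 1, at 0.43, or either KO embryoid body library, at 0.56 each, and Zscan10 without either KO embryoid body library, at -0.37 and -0.35.

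Sums of markers of other cell types also differed between groups, not all in the same direction. Trophoblast markers summed to 12.79 to 14.7 FPKM in KO against 9.75 FPKM in WT pluripotent cells, but their sum was lower in KO in the other cultures. Most of the KO pluripotent sum was Hand1, at 12.36 and 10.12 FPKM in KO against 0.70 FPKM in WT. The other markers, Ascl2, Krt7 and Cdx2, were lower in KO there. Ascl2 was higher in KO after LIF withdrawal, at 5.04 and 5.34 FPKM against 3.70 FPKM in WT. The same held in embryoid bodies, at 5.09 and 4.64 FPKM in KO against 2.17 FPKM in WT. Neural progenitor markers summed to 3.96 to 5.58 FPKM in KO against 5.49 FPKM in WT embryoid bodies. Extraembryonic endoderm markers summed to 6.19 to 6.41 FPKM in KO against 6.64 FPKM in WT after LIF withdrawal. The endoderm sum was thus lower in KO in all 3 cultures, and the neural sum was lower in KO in all but embryoid bodies. The 8 feeder fibroblast markers all had values, and their summed level was 17.1 to 21.4 FPKM in KO against 37.0 FPKM in WT pluripotent cells, 6.70 to 8.61 FPKM in KO against 15.7 FPKM in WT after LIF withdrawal, and 21.1 to 22.8 FPKM in KO against 32.4 FPKM in WT embryoid bodies. Most of that sum was Thy1, at 16.39 and 20.76 FPKM in KO against 34.21 FPKM in WT pluripotent cells, 5.58 and 7.12 FPKM in KO against 12.77 FPKM in WT after LIF withdrawal, and 18.70 and 19.96 FPKM in KO against 24.92 FPKM in WT embryoid bodies. Some markers at low levels went the other way, such as Dcn, at 0.05 and 0.11 FPKM in KO pluripotent cells. Postn was at 0 in every group but the WT LIF withdrawal library, and Dcn was at 0 in all 3 WT groups. The summed level of the 5 primitive streak and mesoderm markers was 3.75 to 4.14 FPKM in KO against 6.41 FPKM in WT pluripotent cells, 11.3 to 15.1 FPKM in KO against 42.6 FPKM in WT after LIF withdrawal, and 15.5 to 15.7 FPKM in KO against 70.0 FPKM in WT embryoid bodies. The summed level of the 3 germ cell markers was 13.2 to 19.3 FPKM in KO against 32.7 FPKM in WT pluripotent cells, 58.0 to 64.8 FPKM in KO against 30.03 FPKM in WT after LIF withdrawal, and 33.0 to 38.7 FPKM in KO against 19.6 FPKM in WT embryoid bodies. The higher KO sums of the differentiating cultures were mostly Stra8, at 40.53 and 45.11 FPKM in KO against 4.50 FPKM in WT after LIF withdrawal and 21.41 and 15.47 FPKM in KO against 2.94 FPKM in WT embryoid bodies. Ddx4 was lower in KO in each culture, for example at 6.84 and 8.59 FPKM in KO against 17.85 FPKM in WT after LIF withdrawal. The part of these markers in the levels of the Zscan4 and Tcstv genes was not tested.

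The genes most like the Zscan4 sum across the 9 libraries were named by Pearson's r of log2(CPM + 1), as a description over libraries that share genotype and culture. Sycp3, which encodes a protein of the meiotic synaptonemal complex, had the highest r outside the 8, at 0.989. It had 3.46 and 4.85 FPKM in KO against 23.42 FPKM in WT pluripotent cells, 9.41 and 13.71 FPKM in KO against 26.17 FPKM in WT after LIF withdrawal, and 13.86 and 13.95 FPKM in KO against 36.80 FPKM in WT embryoid bodies. Sycp3, like the Zscan4 copies, was thus low in the KO pluripotent libraries and high in the WT embryoid body library. The next were Gm5039 and Gm2022, at 0.987 each, then Ak3, Zfp770, Arrb1, Grb7, Lhpp, AI597479 and Ccdc40, at 0.986 to 0.982. An r of at least 0.95 was reached by 122 tested genes, so such likeness is not rare among these libraries. Among the 8 themselves the r of a copy with the Zscan4 sum, which contains it, was 0.987 to 0.997, and r was 0.977 for Gm8300 and 0.907 for Tcstv3.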

How the data were processed

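The authors deposited 9 tables, 1 per library, with an FPKM and an expected count, that is an estimated count not rounded by the authors, for every listed gene, per the file headers. The submitters' processing notes name Bowtie2 and build mm8, and the quantifier and the use of strand are not given in the sources used here. Libraries came from total RNA prepared with standard Illumina methods, per the labels' protocols.

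Expected counts were rounded, and unlisted genes were set to 0. Of 20287 gene IDs, 20234 were named by gene ID and 9 by accession from the RefSeq table of GRCm38.p6, and 44 stayed unnamed. Genes that averaged 0.5 FPKM or more were tested with edgeR's quasi-likelihood test (version 4.0.16, TMM factors 0.94 to 1.04), in a fit of 6 group means, in which the KO pairs give the 3 residual degrees of freedom (biological coefficient of variation 6.52%). The fit over the cultures had additive culture and genotype terms (5 residual degrees of freedom, coefficient of variation 18.1%). P-values were Benjamini-Hochberg adjusted within a comparison. Family sums were fitted in the same table in place of their copies, Zscan4 without Zscan4a. Alternatives were DESeq2 1.42.0, RLE factors, no filter, limma 3.58.1 on log2(FPKM + 1) or log2(FPKM + 0.1), leaving out each library, KO libraries alone with and without the replicate number as a block, and sums over every copy. A count of 3 corresponds to between 0.276 and 0.296 CPM in these libraries.

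The 8 genes and the lists were chosen with earlier results of these data known. All 8 genes are named, the 10 genes most like the Zscan4 sum, and from each list up to 4 called genes with the smallest p per comparison; of those the rule gave for the responses and the average over cultures, not all are printed; Zscan4a, and list genes in cultures where the rule did not name them, were added after their values were seen.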

Additional observations from a re-analysis of the deposited data

Results flagged for a closer look

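The differences between the KO and the WT response were tested as an interaction, and these passed at an adjusted p under 0.05 with edgeR's quasi-likelihood test. For LIF withdrawal over pluripotent culture the KO response exceeded the WT response by 2.30 for Zscan4b, 1.52 for Zscan4c, 1.74 for Zscan4d, 1.32 for Zscan4f and 1.56 for the Zscan4 sum, all on the log2 scale. For embryoid bodies over pluripotent culture it exceeded the WT response by 2.30 for Zscan4b, 0.94 for Zscan4f, 1.11 for Gm8300 and 1.24 for the Zscan4 sum. Each rests on 1 WT library per culture, and the KO and WT pluripotent libraries enter all 9 values.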

How the results depend on the processing

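Of 1084 values of the 6 tested genes and the family sums under the alternatives, 1034 kept their direction and their side of the threshold, 41 lost the call, 9 gained it and 0 reversed. All 432 of these values for KO against WT kept direction and call. Many alternatives could hardly move a value, so these totals do not measure robustness. A left-out library of another culture enters a comparison within a culture only through scaling, filtering and the shared spread. The Tcstv sum over every copy holds the same genes as the main sum. In KO against WT the Zscan4 sum ran, with single libraries left out, from -3.73 to -3.02 in pluripotent culture, -1.86 to -1.68 after LIF withdrawal and -2.42 to -1.83 in embryoid bodies. The calls that changed among these genes and sums concerned responses, and the cause was not tested. Among list genes, calls of KO against WT were lost under some alternatives for Zscan20, Zscan25 and Zkscan3 in pluripotent culture, for Zscan18, Zkscan3 and Dppa3 after LIF withdrawal and for Zscan10 in embryoid bodies. The Zscan4 response of WT embryoid bodies was not called by DESeq2, at 0.86 (adjusted p = 0.248), nor by limma, at 0.82 with either pseudocount (adjusted p = 0.131 and 0.163). The difference of the LIF withdrawal responses was not called for the Zscan4 sum by DESeq2, at 1.56 (adjusted p = 0.0687), or by limma with the pseudocount 0.1, at 1.66 (adjusted p = 0.0504). That of the embryoid body responses was not called by DESeq2, at 1.23 (adjusted p = 0.154), or by limma, at 1.29 and 1.38 (adjusted p = 0.0637 and 0.0694). Genes called higher numbered 0 instead of 2 in WT embryoid bodies with DESeq2 and limma. For the LIF withdrawal difference they numbered 2 with DESeq2 and 1 with limma instead of 4, and for the embryoid body difference 1 with DESeq2 and limma instead of 3, and 1 to 5 with single libraries left out. The Tcstv response of KO embryoid bodies ran from 0.21 to 1.74 and was called only without KO embryoid body replicate 2, at 1.46 (adjusted p = 0.0435). Over all alternatives the adjusted p of these 4 sums ran from 0.00459 to 0.248 for WT embryoid bodies, 0.000863 to 0.0687 and 0.00171 to 0.154 for the differences after LIF withdrawal and in embryoid bodies, and 0.0435 to 0.813 for Tcstv. Without the filter on low values Tcstv1 was lower in KO pluripotent cells (adjusted p = 0.0140).

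Same-numbered KO libraries deviated together only weakly, with correlations of 0.159, 0.007 and 0.062. Each value rests on a single KO pair per culture and cannot show whether same-numbered libraries belong together. Whether the replicate numbers pair the libraries is thus not known, and the main fit was unpaired. With the replicate block in the KO libraries the Zscan4 sum rose by 1.67 after LIF withdrawal and by 2.065 in embryoid bodies, the Tcstv sum stood at 0.95 and 0.91, and 5 of 6 genes were called in each, as without it.

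Depth limits Tcstv1 above all, with at most 12 counts in a library, and shared reads limit every single Zscan4 copy. With 1 WT library per culture no spread between WT samples could be measured, and leaving out that library gave no value for the comparisons that need it.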
